A study of Mus musculus with 2 samples.

Results

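The sequences described here are the abundant small RNAs of 29 to 31 nt that start with U in testes of the Stambp-ps1 series. They were chosen by their length, by their first base and by a read count of at least 100 summed over the 2 deposited tables, so these 3 properties are a description and not a finding. There were 43082 such sequences, called members below, of 12016007 distinct sequences in all and of 3106644 distinct U-start sequences of 29 to 31 nt. The labels describe small RNA from 23 dpp testes of C57BL/6 mice, 1 sample of genotype Stambp-ps1+/- and 1 of Stambp-ps1-/-, where Stambp-ps1 is a pseudogene of the deubiquitinase gene Stambp. Both tables are listed under the Stambp-ps1-/- sample, 1 with KO and 1 with het in its name, so each goes by that word here (KO-named, het-named) and was not assigned to a genotype. Whether a library came from 1 animal or from pooled animals is not given in the sources used here. Each table is 1 library, so no difference between them has a replicate check and no test was run.

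The tables held reads of 18 to 32 nt, 54384974 of them KO-named and 62773871 het-named. As a check of the tissue, the mature sequences of 6 testis germ cell miRNAs summed to 13961 KO-named and 13679 het-named RPM, which are reads scaled to a total of 1000000 in each table. Those of 4 miRNAs of blood and neural cells summed to 45.6 and 30.5 RPM. The planned list also held a liver, a muscle and another testis miRNA, which are not reported here. Intervals and floors below are exact 95% binomial ones and cover counting error only, since PCR copies of a molecule are counted as separate reads.

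PIWI-interacting RNAs (piRNAs) are germ line small RNAs that guide PIWI proteins to transposon and other transcripts. In meiotic mouse spermatocytes most of them are cut from long single-stranded precursors, many of them noncoding, and a U at the first base is preferred by the pocket of PIWI proteins that holds the 5′ end. Their 3′ ends are trimmed to a length typical of the bound PIWI protein, longer for PIWIL1 (MIWI) than for PIWIL2 (MILI), and then 2′-O-methylated. In the ping-pong cycle a cut by a U-start piRNA leaves a partner on the other strand with A at base 10, at an overlap of 10 nt.

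Of the members with most reads, the 8 below are those that have an annotated source and are shown under the rule stated with the methods. They are shown because they give the sources and the 2 ends of the abundant sequences. T stands for U, and the first and the last base are in capitals.
Gm21269, 30 nt: TatgtgaatttcaactgttggctccacagG
snRNA genes, 30 nt: TtggctaagatcaagtgtagtatctgttcT
1700009C05Rik, 30 nt: TtatctctgtgatctaactgatgccgtggC
1700029M20Rik, 30 nt: TgccctgagcatgttgatctctttgtgccC
1700001L05Rik, 30 nt: TgatactcggaatttggcacagctctgctT
Mir7210 entry, 30 nt: TaacattgtagacaggcacaaagatccccT
16 places, 30 nt: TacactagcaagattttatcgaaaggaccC
Gm49794, 30 nt: TgagctctatcgggtttctgaaccctgggC

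The first of these was the fifth of all members by reads, with 35761 KO-named and 29175 het-named reads. It matched an exon of the lincRNA Gm21269 at chr7:73824992-73825021 (GRCm38), plus strand. Its ratio of KO-named to het-named RPM was 1.41 (1.39 to 1.44). The snRNA sequence, with 24107 and 20551 reads, matched 19 small nuclear RNA genes, so it is a fragment of a spliceosomal RNA class by its annotation.

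The noncoding sources gave single sequences of similar abundance. The sequence of the lincRNA 1700009C05Rik, at chr6:81900592-81900621 on the minus strand, had 9957 and 8902 reads. That of 1700029M20Rik, at chr4:135629235-135629264 on the plus strand, had 8727 and 9485 reads. The 1700001L05Rik sequence, at chr15:83354948-83354977 on the minus strand, had 8672 and 8231 reads. All 3 lay in exons of lincRNAs and on the sense strand. The sequence at the Mir7210 entry, chr14:24088877-24088906 on the plus strand, had 7686 and 9046 reads, and the sequence with 16 places had 7568 and 8615. The Gm49794 sequence, at chr17:27357419-27357448 on the plus strand, had 8824 and 7119 reads and a ratio of 1.43 (1.39 to 1.48). The ratios of the 8 sequences ran from 0.981 for the Mir7210 entry to 1.43 for Gm49794.

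The members were a small part of the distinct sequences and a large part of the reads. They held 25046205 reads, of which 12475789 were KO-named and 12570416 het-named. This was 22.9% of the KO-named total and 20.02% of the het-named total. Of U-start reads of 29 to 31 nt the KO-named share was 71.0% (70.98 to 71.03) and the het-named share 70.7% (70.68 to 70.73). All but 1 of the members were present in both tables, the exception having 0 KO-named reads. At the read minimum, 364 members had exactly 100 reads and 344 U-start sequences had 99. The 3 members taken just inside it had 46 and 54, 36 and 64, and 32 and 68 reads, KO-named first. The 3 sequences just outside had 50 and 49, 48 and 51, and 49 and 50 reads.

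Reads were spread over many members, with no sequence above 1% of the total. The member with most reads held 0.641% of the members' reads, the first 10 held 3.02%, the first 100 held 11.1% and the first 1000 held 32.7%. It took 3029 members to reach 50% of the reads. Members of 100 to 199 reads made up 45.0% of members and 10.8% of their reads, while the 565 members with 5000 reads or more held 25.6% of the reads. The concentration was nearly the same in the 2 tables, where the first 100 members held 11.4% of member reads (KO-named) and 10.8% (het-named).

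The length of 30 nt was the most common. There were 13145 members of 29 nt, 17233 of 30 nt and 12704 of 31 nt, with 29.3%, 42.5% and 28.2% of the reads. Many members are length forms of 1 RNA 5′ end, so they are not independent: the 43082 members have 25715 distinct starts of 29 nt, called 5′ ends below. Ends that differ at the last of these bases alone count as separate, and distinct first 26 nt numbered 24780. Of the 25715 ends, 10539 (41.0%) had more than 1 member and 3523 had all 3 lengths. The form with most reads had 30 nt at 40.8% of ends, 29 nt at 34.0% and 31 nt at 25.2%. The 5′ ends also ran on into the shorter U-start sequences. Of the members, 51.0%, with 70.0% of the reads, shared their first 26 nt with a U-start sequence of 26 to 28 nt that also had at least 100 reads.

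The make-up after the first base departed most from an even spread at base 5 and at the last bases. At base 5, 44.1% of members had A, 23.0% T, 17.9% G and 14.9% C, and by reads A reached 48.8%. No other base from 2 to 28 had any letter at over 40% of members. U-start sequences of 26 to 28 nt with at least 100 reads had A at base 5 in 42.9%, and U-start sequences of 29 to 31 nt under 100 reads in 39.6%. The 7059 sequences of 29 to 31 nt with at least 100 reads and another first base had it in 35.2%. Base 2 was A in 36.5% and G in 27.6% of members, with C (15.4%) and T (20.5%) less common. The 3 most common first 5 bases were TAGGA with 880 members, TGAGA with 823 and TAGAA with 727, each with A as its last letter.

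Base 10, where the partner made in the ping-pong cycle carries A, was A in 31.8% of members and in 32.4% of their reads. The neighbouring bases 9 and 11 were A in 27.5% and 30.3%. The share at base 10 was 29.3% in U-start sequences of 26 to 28 nt and 37.4% in the sequences of 29 to 31 nt with another first base. Median GC content of members was 43.3%, against 48.3% in those sequences with another first base.

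The last base was most often T. It was T in 43.0%, C in 29.4%, A in 15.0% and G in 12.6% of members, and by reads T had 41.3% and C 33.4%. The share of T rose with length, from 33.2% of members of 29 nt to 42.1% of those of 30 nt and 54.5% of those of 31 nt. The share of G fell from 15.2% to 13.4% and 8.93%. With the most abundant form alone for each 5′ end, T ended 39.4% of forms of 29 nt, 40.8% of 30 nt and 47.3% of 31 nt. Since an end is counted by its first 29 nt, forms of 29 nt that differ at the last base are separate ends there. The values at 29 nt and at the longer lengths are thus not reduced alike. In U-start sequences of 26 to 28 nt, C (36.0%) was more common than T (31.98%) at the end. The base before the last was C in 36.6% and T in 22.3% of members.

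Part of the T at the end did not match the transcript. Without their last 2 bases, 7764 members (18.02%) matched an annotated transcript, and 1177 of these matched only so. Of these, 1056 differed from the transcript at the last base alone, and that last base was T in 95.8%, A in 2.75%, C in 0.947% and G in 0.473%. The transcript had A at that place in 48.6%, G in 26.4% and C in 23.9%. Such ends made up 6.76% of the members of 29 nt that matched without their last 2 bases, 12.5% of those of 30 nt and 23.0% of those of 31 nt. Members that matched whole at 1 place also ended in T more often with length, 28.7% at 29 nt, 34.2% at 30 nt and 41.2% at 31 nt. An added T counts as a match where the transcript has T, so these shares do not separate it from transcript T. Sequencing error and added bases were not told apart here.

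The 3 members with most reads among those that differ at the last base alone, match 1 place and lie outside UTRs are shown beside the form that matches the transcript. They show that the unmatched form can be the more abundant. The last base is in capitals, and positions are counted from 1 at the 5′ end, the transcript's base first.
Gm49794, G29T: tatgagctctatcgggtttctgaaccctT
Gm49794, as the transcript: tatgagctctatcgggtttctgaaccctG
Gm21269, G31T: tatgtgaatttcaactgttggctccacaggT
Gm21269, as the transcript: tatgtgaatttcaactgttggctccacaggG
1700029M20Rik, C30T: tgccctgagcatgttgatctctttgtgccT
1700029M20Rik, as the transcript: tgccctgagcatgttgatctctttgtgccC

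At Gm49794 the T form had 8922 KO-named and 7885 het-named reads and the matching form 837 and 677. At Gm21269 the T form had 7492 and 7384 reads and the matching form 802 and 692. In both lincRNAs the T form was the more abundant in each table. The Gm21269 sequence is the leading Gm21269 member with 1 base added, and that member, 1 base shorter and matching whole, had more reads than either. At 1700029M20Rik the order was turned, with 6689 and 6357 reads of the T form against 8727 and 9485 of the matching one.

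Annotated transcripts gave a place to 6587 members (15.3%), with 14.6% of the members' reads. A place is a position on the transcripts of GENCODE M21, with no mismatch, since a genome sequence was not used here. The share was 18.7% for U-start sequences of 26 to 28 nt and 17.2% for sequences of 29 to 31 nt with another first base. Of the placed members 5429 had 1 place and 409 had 10 or more. Among the 100 members with most reads 16 were placed, so most of the abundant members have no annotated source here, and the member with most reads was among those without one.

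Noncoding precursors read in the sense direction were the main annotated source. A member with several places was shared out among them. By that count lincRNAs in sense held 43.1% of placed members and 48.9% of their reads. Protein-coding genes in sense held 20.1% and 15.9%, and 73.9% of these members lay in 3′ UTRs and 18.8% in coding sequence. Members antisense to processed pseudogenes were 6.44% and those antisense to coding genes 5.47%. In all, 76.6% of placed members and 80.2% of their reads were in sense.

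The 10 genes with most reads held 44.0% of the placed reads and 2164 members. The lincRNA Gm21269 (chr7:73816546-73838898, plus strand) led with 501 members and 193883 KO-named and 186164 het-named reads, 3565 and 2966 RPM. Gm49794 (chr17:27354111-27367492, plus strand) had 443 members with 161664 and 153826 reads, 2973 and 2450 RPM. Both were read almost only in sense, at 99.6% and 99.997% of reads. Gm10619 (chr7:73781429-73816503, minus strand), whose start lies next to that of Gm21269 on the opposite strand, had 173 members and 1341 and 1130 RPM. Gm10505 (chr17:27325035-27344833, plus strand), a processed transcript near Gm49794, had 166 members and 1239 and 1094 RPM.

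Of the other 6 genes, the lincRNA 1700001L05Rik had most reads. It lies on the minus strand (chr15:83353847-83367282) and had 240 members with 1707 and 1474 RPM, and Nemp1 (chr10:127666901-127701049), which encodes an inner nuclear envelope protein and is the only coding gene of the 10, had 122 members and 1245 and 1072 RPM. Gm5878 (chr6:85111416-85126125) had 928 and 718 RPM and 1700029M20Rik (chr4:135626655-135630198) 803 and 738 RPM. D130017N08Rik (chr5:143758354-143768575) had 577 and 491 RPM, and AC140207.2 had 623 and 566 RPM. All 10 genes had more RPM in the KO-named table, and their log2 ratios of summed reads lay between 0.12 for 1700029M20Rik and 0.37 for Gm5878. Scaled to U-start reads of 29 to 31 nt, which takes 0.19 from each, 1700029M20Rik, AC140207.2 (0.14) and Gm10505 (0.18) fall below 0. Of 1139 genes with at least 10 members, with members of several places counted at each gene, 517 had a median member log2 ratio above 0. The same members recur at many of these genes, so the genes are not separate sources. Of all placed members, 4853 (73.7%) had a log2 ratio above 0. A at base 5 stood in 37.5% of Gm49794 members and 52.8% of Gm5878 members, the ends of the range over the 10 genes. T was the last base of 27.0% to 41.8% of their members.

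Of 20 known piRNA source genes on a list drawn up with earlier results of these data in view, 16 had a member. No member fell on Gm17270, Gm20707, Hbs1l or Phf20. The pseudogene Gm18609, whose members were all antisense to it, had 111 members with 15832 KO-named and 15016 het-named reads. Of the coding genes of the list, Nemp1 is described above and the others had fewer reads. Ddx19b, an RNA helicase gene, had 37 members with 5458 and 5185 reads, and Kctd7, Wdfy3 and Ip6k1 had 16, 14 and 12 members. Smyd5, a methyltransferase gene, had 3 members, all antisense, with 699 and 1130 reads. Pan2, Gm10069 and A130010J15Rik had members only through sequences with several places, with under 30 shared reads each.

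Gm18009, which RefSeq lists as Stambp-ps1 itself, had 2 members, both antisense to the pseudogene. They are shown because they stood among the 5 printed members with the lowest ratio, with the first and last base in capitals.
Gm18009, 0 and 324 reads: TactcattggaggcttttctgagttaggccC
Gm18009, 3 and 163 reads: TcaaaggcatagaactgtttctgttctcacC

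The first, at chr6:128447668-128447698 on the plus strand, had 0 KO-named reads, for which the floor is 0.0552 RPM, and 324 het-named reads. With the floor of 3 reads in place of 0 it was 93.6-fold lower in the KO-named table, which leaves out counting error in the het-named table. The upper bound of its exact interval, which holds the error of both counts, was a ratio of 0.0132. The second, at chr6:128447788-128447818 on the plus strand, had a ratio of 0.0212 (0.00434 to 0.0632). The record lists both tables under 1 sample, so these values are given by table name and not by genotype.

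Other annotated RNA classes were counted among placed members alone. Annotated miRNA, snoRNA, snRNA, scaRNA, misc_RNA, rRNA and mitochondrial RNA entries were touched by 208 members with 0.604% of the members' reads. All of these are placed members, a group with 14.6% of the members' reads. Members without a place were not assigned to a class, and tRNA of the nuclear genome was not among the classes counted. Small nuclear RNA had the largest part, 0.292% of the members' reads from 14 members. Members that touch rRNA entries were 53, with 3858 KO-named and 8285 het-named reads and a median log2 ratio of -1.01. With members shared over their places, 30.5 were antisense to the rRNA entry and 2.86 in sense.

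There were 148 members 1 base away from a member with at least 50 times their reads. They held 0.123% of the members' reads, and 74 of them differed at the last base.

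On the transcripts the members lay close together. Members with 1 place had 3759 distinct starts, 26.3% of them with the next start on the same strand within 5 nt and 49.1% within 31 nt. The base before the first one was C in 33.9%, A in 29.8%, T in 26.5% and G in 9.77%. The base after the last one was T in 29.1%, A in 27.7%, C in 22.1% and G in 21.1%. For 118 ends another member started at the very next base, against a median of 100 at distances of 2 to 30 nt, where the counts ran from 66 to 121. Starts on opposite strands overlapped by 1 to 28 nt in 13 pairs, and 1 of these had the 10 nt overlap of the ping-pong cycle. Only members were paired, and all of them start with U, so partners with another first base were not counted. The number of pairs therefore says little on the ping-pong cycle.

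Between the tables the members differed little, and as a body they were slightly higher on the RPM scale in the KO-named one. The log2 ratio of KO-named over het-named RPM, with 0.5 reads added to each count, had a median of 0.20 and an SD over members of 0.38. Of members, 31697 (73.6%) were above 0. A log2 ratio at or above 1 was reached by 446 members (1.04%) and one at or below -1 by 467 (1.08%). The background was all 116176 sequences with at least 100 reads, the members included. Of these, 0.89% were at or above 1 and 11.8% at or below -1, with a median of 0.13. The members' share at or above 1 was thus near the background, and their share at or below -1 was lower. U-start sequences of 26 to 28 nt had a median of 0.22 with 1.51% at or below -1. Sequences of 29 to 31 nt with another first base had a median of -0.066 with 21.1% at or below -1.

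The height of the median rests on the total used. Scaled to U-start reads of 29 to 31 nt, which lowers every log2 ratio by a shift of 0.19, the median was 0.011, with 205 members at or above 1 and 709 at or below -1. The background shares above are for RPM, and none is given on this scale to set these counts against. Spread narrowed with depth: the SD of the log2 ratio was 0.41 for members of 100 to 199 reads and 0.30 for those of 5000 reads or more. Of the 446 members at or above 1, 286 had fewer than 200 reads. By last base the medians were 0.19 for members ending in A, 0.21 for C, 0.21 for G and 0.19 for T. The low end differed more, with 2.29% of members ending in G at or below -1 and 0.631% of those ending in T. The lengths had medians of 0.21, 0.21 and 0.18 for 29, 30 and 31 nt. Placed and unplaced members had medians of 0.21 and 0.20.

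Many members with a high ratio shared a start. The 5 printed below are the highest that have an annotated place, and all 5 begin TCTGA, which is in capitals with the last base. The start was singled out after its values were seen.
4932702P03Rik, 85 and 19 reads: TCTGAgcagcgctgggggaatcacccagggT
4933404O12Rik, 201 and 58 reads: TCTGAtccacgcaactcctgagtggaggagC
D130017N08Rik, 95 and 34 reads: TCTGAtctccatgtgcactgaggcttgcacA
4930444F02Rik, 114 and 41 reads: TCTGAagcacaagaaacaactaaaaccaaA
Gm21269, 105 and 38 reads: TCTGAattgcagacttggctgttgatatA

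They lie at chr13:24906199-24906229, chr5:136935560-136935590, chr5:143764951-143764981, chr10:18800342-18800371 (minus strand) and chr7:73822116-73822144, all but 1 on the plus strand and all in sense to noncoding genes. The read numbers are KO-named first. Their ratios of RPM ran from 3.19 (2.18 to 4.75) at Gm21269 to 5.16 (3.11 to 8.995) at 4932702P03Rik, and since they were picked for high ratios these values are a description.

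The start covered 620 members from 360 distinct 5′ ends, and 102 of them were placed, on 66 genes. Their KO-named reads were 194086 and their het-named reads 148725, 1.56% and 1.18% of the members' reads, and their median log2 ratio was 0.50. All other members had a median of 0.20. Of the 620 members, 134 (21.6%) were at or above 1 and 1 was at or below -1. The start was carried by 1.44% of all members and by 30.04% of those at or above 1, and without it 312 members were at or above 1. Among 236 starts of 5 bases with at least 20 members TCTGA had the highest median, and the next highest was 0.33 for TTTCC.

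The position of these letters went with the ratio. Members with TCTGA at base 2 or later had medians from 0.16 to 0.35 by position, and at most 3 members at or above 1 at any position. The letter after TCTGA went with it less, with medians of 0.58 for A, 0.55 for C, 0.46 for G and 0.38 for T. Members that start TCTG with another letter after it numbered 367 and had a median of 0.26, with 14 at or above 1. Of TCTGA members, 444 overlapped another member whose start lay 1 to 9 nt away. The median was 0.47 for these TCTGA members and 0.19 for their neighbours, and 334 (75.2%) were above their neighbours. Since the start was singled out for its high ratios, lower neighbours were likely, and these values are a description. Length forms of 1 5′ end are counted separately in them.

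The Gm21269 sequence printed above is set beside a member that starts 7 nt later on the same RNA. The printed sequence was picked for its high ratio, so a lower neighbour was likely and the pair is an illustration only.
Gm21269, 105 and 38 reads: TCTGAattgcagacttggctgttgatatA
Gm21269, 77 and 73 reads: Tgcagacttggctgttgatatactctgccc

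The same start stood out in other lengths of the same 2 libraries. U-start sequences of 26 to 28 nt that start TCTGA numbered 317, with a median of 0.46 and 63 at or above 1, against a median of 0.22 for all of that length. Those of 18 to 25 nt numbered 132, with a median of 0.40 against 0.073. The start TGAAC was next in the number of members at or above 1: 302 members, with a median of 0.30, 38 of them at or above 1. Its summed reads had a log2 ratio of 0.10, below the 0.20 of all members' sums, and its sequences of 26 to 28 nt had a median of 0.22, as all of that length did. Of those 209 sequences, 12 (5.74%) were at or above 1, against 0.919% of all U-start sequences of that length. The TGAAC sequences of 18 to 25 nt had a median of -0.26, so the median of this start did not keep its direction over the lengths. Members that start TGG, 1605 in all, had a median of 0.0086. Over 227 starts of 5 bases with at least 20 sequences in both sets, the medians of the members and of the U-start sequences of 26 to 28 nt had a Pearson r of 0.82 and a Spearman rho of 0.57 across starts. The 2 sets share libraries and many 5′ ends, so they are not independent. What sets these starts apart between the 2 libraries was not tested.

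At the low end, 5 members with an annotated place were taken: the 2 Gm18009 members, 2 length forms of 1 Gm49794 5′ end and 1 member in the 3′ UTR of Lars2, the mitochondrial leucyl-tRNA synthetase gene. The Lars2 member had 16 KO-named and 95 het-named reads and a ratio of 0.194 (0.107 to 0.332). It was not alone: the 54 Lars2 members had a median log2 ratio of -1.07, with a range of -2.33 to -0.45. Members that touch rRNA entries had a median of -1.01, and whether the 2 sets are related was not tested. The longer Gm49794 form had 3 and 583 reads and the shorter 28 and 604 reads, with ratios of 0.00594 (0.00122 to 0.0174) and 0.0535 (0.0353 to 0.0781). All the other Gm49794 members together were higher in the KO-named table, as the gene's sum shows. Among the members with the lowest ratios, 19 were passed over to reach these 5 because they had no annotated place.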

How the data were processed

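Per the labels' protocols, 20 µg of total RNA was run on a 15% denaturing gel, the range of 15 to 40 nt was purified, and TruSeq Small RNA libraries were prepared. The authors deposited 2 tables, each a list of distinct read sequences with raw counts of reads. The sources used here name no trimming tool, aligner or genome build.

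Members are sequences of 29 to 31 nt starting with T with at least 100 reads in the tables together. They were matched whole, with 0 mismatches, to both strands of the GENCODE M21 transcripts (GRCm38) by a lookup of 26 bases. Coding sequence and UTRs came from that annotation, and the miRNA and pseudogene names from RefSeq (GRCm38.p6). A member with several places counted by 1 over their number. Ratios used RPM with 0.5 reads added to each count, and intervals are Clopper-Pearson and conditional binomial ones at 95%. Matching and ratios were tested on simulated data. Python 3.11.15 with numpy 2.4.6, pandas 2.3.3 and scipy 1.17.1 was used.

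With 1 library per table no test was run. The members and lists were chosen with earlier results of these data known. The members named were the 10 with most reads, the 5 highest and 5 lowest log2 ratios at or past 1 in size, and 3 on either side of the minimum. The 10 genes with most reads and every listed source were named too. Ranked members with no annotated place, or with one on chromosome 18, were passed over: 77 for most reads, 32 for the highest and 19 for the lowest ratios. Of the 10 with most reads, 2 are not reported here. Alternatives changed the minimum, length, weighting, matching, scaling and added reads. Those on the TCTGA start were chosen after seeing the data.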

Additional observations from a re-analysis of the deposited data

How the results depend on the processing

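With a minimum of 50 reads there were 74610 members holding 77.1% of U-start reads of 29 to 31 nt, and with a minimum of 200 reads 23677 members holding 63.2%, against 43082 and 70.9% in all. By length alone the share held was 69.5% at 29 nt, 73.1% at 30 nt and 69.0% at 31 nt. The first 100 members held 11.4% in the KO-named table alone and 10.8% in the het-named table alone. Weighted by reads, A at base 10 was 32.4%, T at the end 41.3% and the placed share 14.6%. T at the end was 33.2%, 42.1% and 54.5% at 29, 30 and 31 nt, and 42.0% with one form per 5′ end. The placed share was 18.02% without the last 2 bases and 12.6% for exactly 1 place. The median log2 ratio was 0.12 when scaled to reads of 24 to 32 nt, 0.26 to reads of 21 to 23 nt and 0.011 to U-start reads of 29 to 31 nt. On the last scale 205 members were at or above 1 and 709 at or below -1, and with a minimum of 200 reads 160 and 265. With 5 reads added, 365 and 403 were, and no background share is given for these counts. On those 3 scales the median of TCTGA members was 0.42, 0.57 and 0.31, since a change of total moves every ratio alike. No paired analysis was possible because each table is 1 library and neither was put in a group.

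With 1 library per table, variation between animals cannot be seen, and the ratio intervals hold counting error alone. A member of 100 reads has a wide interval: the first just inside the minimum had a ratio of 0.983 (0.649 to 1.48). Annotated transcripts place 15.3% of members, so the statements on sources and strand hold for that part only, and those on unmatched ends for the 18.02% that match without their last 2 bases. A genome was not used here.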

Other observations

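At 1 Gm49794 start, forms that share their first 26 nt were far apart between the tables. The forms with at least 100 reads are shown with the bases after the shared first 26 in capitals.
29 nt: taggtactgtcgtggcaggtggccacGTG
29 nt, unmatched end: taggtactgtcgtggcaggtggccacGTT
30 nt: taggtactgtcgtggcaggtggccacGTGC
31 nt: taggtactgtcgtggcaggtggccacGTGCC
The matching form of 29 nt had 316 KO-named and 275 het-named reads, and the form that ends in an unmatched T had 192 and 162, log2 ratios of 0.41 and 0.45. The form of 30 nt had 28 and 604 reads and that of 31 nt 3 and 583, log2 ratios of -4.20 and -7.17. All 4 forms share their first 26 bases, so the difference lies between forms that differ at the 3′ end. It was singled out after its values were seen, and rests on 1 library per table.

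Shifts of 1 to 3 nt between member 5′ ends were each more common than any shift of 4 to 9 nt. Of the 25715 ends, 9.90% had another U-start end 1 nt downstream, 9.75% at 2 nt and 8.58% at 3 nt, against 4.05% to 5.64% at 4 to 9 nt.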
